A study of Mus musculus with 18 samples.

Results

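The 10 genes described here carry lactate across cell membranes, interconvert lactate and pyruvate, or build and break down glycogen. They were chosen by name, as members of these pathways, out of 23924 genes with a value in astrocytes of the mouse motor cortex. They are the monocarboxylate carriers Slc16a1, Slc16a3 and Slc16a7, the lactate dehydrogenase genes Ldha and Ldhb, the glycogen synthesis genes Gys1 and Gbe1, the glycogen phosphorylases Pygb and Pygm, and the regulator Ppp1r3c. All 10 were in the table, and all 10 passed the filter of at least 1 FPKM (fragments per kilobase, a level scaled to transcript length and library size) in at least 6 libraries.

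The study asked how learning a motor skill alters these cells. Wild-type C57BL/6 mice were put on restricted water and learned to push a lever at a cue for a drop of water. Naive mice had no training (6 libraries, 12 to 21 weeks of age), novice mice had 3 days of it (6 libraries, 11 to 13 weeks) and expert mice were fully trained (6 libraries, 13 to 15 weeks). Each group held 2 libraries labelled female and 4 labelled male. The sources used here do not say whether the naive mice were also kept on restricted water, nor how the astrocytes were isolated, nor whether the libraries stand for separate animals.

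In the brain, glycogen is stored mainly in astrocytes. Phosphorylase splits it into glucose phosphate when local demand is high, and the sugar can leave the cell as lactate after glycolysis. Lactate dehydrogenase makes lactate from pyruvate and the reverse, with tetramers rich in the A subunit usually linked to lactate production and those rich in the B subunit to its use. The carriers encoded by Slc16a1, Slc16a3 and Slc16a7 move lactate together with a proton. Traffic of lactate from astrocytes to neurons is known as the lactate shuttle. Blocking glycogen breakdown or lactate transport in rodents is known to impair the formation of some memories.

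The libraries carried the transcripts of astrocytes, with 20 of 20 astrocyte markers above 0 in every library and a mean log2(FPKM + 1) over them of 5.93 to 8.16. They also differed in another way, within every training group. It was not evenly spread over the groups, so that it cannot be fully told apart from stage. Averaged over 1586 genes that brain cells mostly leave off, such as olfactory receptors (the silent families), the level was 0.301 to 3.31 FPKM in 10 libraries (4 naive, 2 novice and 4 expert) and 4.65 to 6.70 FPKM in 8 (2 naive, 4 novice and 2 expert), called libraries of lower and higher background here. Astrocyte markers averaged 6.82 to 8.16 where the background was lower and 5.93 to 6.49 where it was higher. What 1 fragment adds to a transcript of 1 kb, which falls with depth and was read from the table's own steps, was 0.282 to 1.10 FPKM in libraries of lower background and 1.05 to 1.85 FPKM in those of higher background. Expert 3 stood apart, with the lowest background (0.301 FPKM), the highest astrocyte markers (8.16) and the most genes at 0 (5430). Novice 1, labelled female, and novice 3, labelled male, had sex chromosome transcripts against their labels, at 1.60 and 17.97 FPKM of Xist, a transcript of the inactive X.

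**Figure D1:**
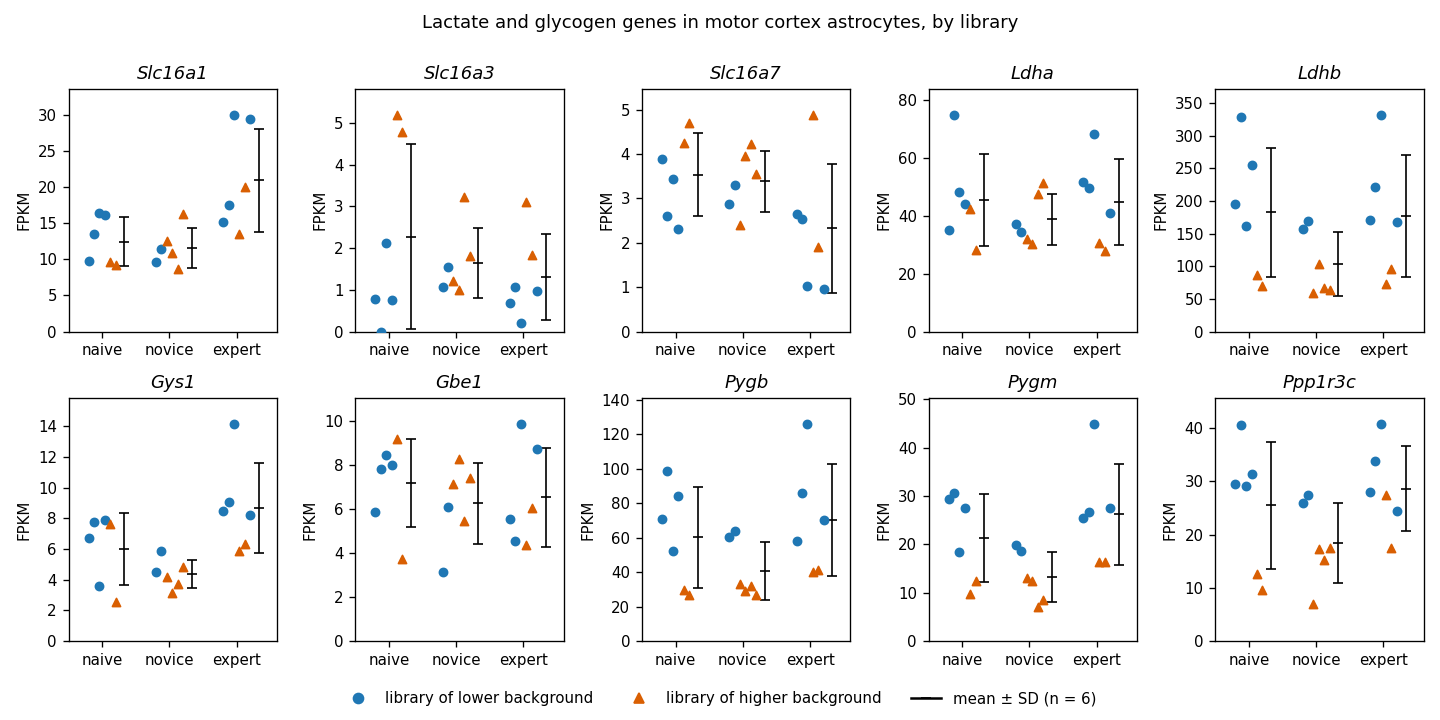
FPKM of the 10 genes (vertical axes, linear, from 0) in the 6 naive, 6 novice and 6 expert libraries. Points are libraries, circles of lower and triangles of higher background, and bars are the mean ± SD. Every circle lies above every triangle for Ldhb, Pygb and Pygm, and expert libraries reach 30.0 FPKM of Slc16a1.

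Ldhb was the most abundant of the 10 genes and came first in 18 of 18 libraries, with a mean over all libraries of 154 FPKM. Since FPKM is a level per transcript length, levels of different genes can be set side by side. Pygb followed at 57.1 FPKM, Ldha at 43.0, Ppp1r3c at 24.2, Pygm at 20.3 and Slc16a1 at 15.0. Gbe1 at 6.64, Gys1 at 6.34, Slc16a7 at 3.08 and Slc16a3 at 1.74 FPKM closed the order. Neighbours in this order were often not separated. Pygb exceeded Ldha in 13 of 18 libraries, Ppp1r3c exceeded Pygm in 14, Pygm exceeded Slc16a1 in 14, and Gbe1 exceeded Gys1 in 11. Ldhb exceeded Pygb, Ldha exceeded Ppp1r3c and Slc16a1 exceeded Gbe1 in 18 of 18 libraries.

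The 250 bases before the annotated start are shown for the carrier gene that stood out among the stages, for both lactate dehydrogenase genes, whose levels behaved differently, and for the synthase and phosphorylase genes with the lowest p among the glycogen genes. RefSeq on GRCm38.p6 gave a start for 9 of the 10 genes. The windows lie at chr3:104638414-104638663 for Slc16a1, chr7:46845554-46845803 for Ldha (the first of its annotated starts), chr7:45434589-45434838 for Gys1 and chr19:6384158-6384407 for Pygm, all on the plus strand, and at chr6:142507958-142508207 on the minus strand for Ldhb. Each is written 5′ to 3′ in the direction of transcription. Capitals mark ACGTG, the core of the element bound by hypoxia-inducible factors, and TGACG, part of the element bound by the cAMP-responsive factor CREB, on either strand.
Slc16a1: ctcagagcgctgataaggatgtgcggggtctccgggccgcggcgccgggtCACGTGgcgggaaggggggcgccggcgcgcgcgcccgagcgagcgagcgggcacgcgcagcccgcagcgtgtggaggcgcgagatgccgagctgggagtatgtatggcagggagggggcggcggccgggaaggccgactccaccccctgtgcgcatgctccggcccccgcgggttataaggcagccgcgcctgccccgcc
Ldha: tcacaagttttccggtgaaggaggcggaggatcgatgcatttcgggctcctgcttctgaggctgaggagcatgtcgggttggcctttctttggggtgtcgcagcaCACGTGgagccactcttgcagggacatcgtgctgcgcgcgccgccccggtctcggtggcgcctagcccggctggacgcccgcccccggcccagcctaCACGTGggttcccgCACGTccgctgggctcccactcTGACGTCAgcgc
Ldhb: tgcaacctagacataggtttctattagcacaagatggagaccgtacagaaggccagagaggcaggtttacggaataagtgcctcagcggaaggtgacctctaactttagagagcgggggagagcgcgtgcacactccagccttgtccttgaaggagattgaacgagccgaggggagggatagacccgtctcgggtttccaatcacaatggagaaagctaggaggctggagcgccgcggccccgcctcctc
Gys1: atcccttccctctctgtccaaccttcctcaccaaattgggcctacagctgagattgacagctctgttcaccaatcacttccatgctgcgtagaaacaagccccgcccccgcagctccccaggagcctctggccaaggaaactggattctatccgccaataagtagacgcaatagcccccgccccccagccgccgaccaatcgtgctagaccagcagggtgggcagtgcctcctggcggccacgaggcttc
Pygm: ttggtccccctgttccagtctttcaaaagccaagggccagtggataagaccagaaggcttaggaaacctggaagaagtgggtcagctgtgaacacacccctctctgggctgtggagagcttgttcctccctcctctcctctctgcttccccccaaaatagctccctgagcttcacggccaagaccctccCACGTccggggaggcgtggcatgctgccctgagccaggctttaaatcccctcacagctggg
In these letters, ACGTG was present in Slc16a1 at positions -200 to -195 from the start, in Pygm at -61 to -57, and in Ldha at -145 to -140, -48 to -43 and -34 to -30. Ldha also held TGACG on both strands in overlap at -12 to -5. Ldhb and Gys1 held neither. Among all 10 windows of the member genes, 6 held ACGTG and 4 held TGACG, and among 32851 annotated windows of the same length 16.6% and 17.8% did. GGGCGG, the GC box, was in 4 of the 10 windows and in 32.7% of all windows. GC content ran from 48.8% in Gbe1 to 76.4% in Slc16a1. Its part in how often these letters occur was not tested, since windows of like GC content were not compared. These matches describe the sequence and say nothing about binding in these cells.

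Of the carriers, Slc16a1 stood higher in expert libraries than at the other stages. Slc16a1 encodes MCT1, which moves lactate, pyruvate and ketone bodies and in the brain is found in endothelial cells and oligodendrocytes as well as astrocytes. Its lowest, median and highest levels were 9.15, 11.6 and 16.4 FPKM in naive libraries, 8.59, 11.1 and 16.3 in novice ones and 13.5, 18.7 and 30.0 in expert ones. The groups overlapped, with expert 4 and expert 1 within the range of the naive group, while expert 3 at 30.0 and expert 6 at 29.4 FPKM lay far above all naive and novice libraries. Expert libraries averaged 20.9 ± 7.14 FPKM and naive ones 12.4 ± 3.36 (SD, n = 6 each), and expert exceeded naive in 31 of 36 pairs of libraries. The log2 fold change on the scale of FPKM + 1 was 0.68 (SE 0.23, 95% interval 0.20 to 1.17). Against novice libraries, at 11.5 ± 2.70 FPKM, it was 0.77 (SE 0.23) with expert higher in 34 of 36 pairs. Novice against naive gave -0.09 (SE 0.23).

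Neither difference passed limma's test over all 21745 genes. Against naive the unadjusted p was 0.0082 and the adjusted p 1.0, and against novice these were 0.0036 and 0.45. The unadjusted p was 0.0065 in the F test for any difference among the 3 stages, whose adjusted p was 0.75 (5.53% of all genes had an unadjusted p under 0.05 in it). No gene of the 21745 was called in any comparison by limma, so that 0% were called. At an unadjusted p under 0.05 stood 1000 genes between novice and naive (4.6%), 622 between expert and naive (2.86%) and 2360 between expert and novice (10.9%). These p-values set the differences between groups against the spread among libraries within groups. What that spread comes from was not tested.

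Endothelial markers differed between the groups in the same direction as Slc16a1. All 15 of them had higher means in expert than in naive libraries (median log2 fold change 0.58, 9 at an unadjusted p under 0.05, 0 called), none was at 0 in any library, and their summed level ran from 303 to 856 FPKM in expert, against 278 to 407 in naive libraries. In novice libraries it ran from 202 to 488 FPKM. The mean log2(FPKM + 1) of these markers was 5.53 in expert 6 and 5.29 in expert 3, and at most 4.75 in every other library. With both left out, the log2 fold change of Slc16a1 was 0.41 over naive and 0.49 over novice (limma, unadjusted p = 0.089 and 0.043). With the endothelial mean as a covariate these were 0.39 and 0.47 (limma, unadjusted p = 0.11 and 0.057). Astrocyte markers also stood higher in expert than in novice libraries, 20 of 20 with a median log2 fold change of 0.76. Over naive libraries, 8 of 8 pericyte and smooth muscle markers stood higher in expert ones (median 0.45) and 7 of 8 oligodendrocyte markers lower (-0.24). Over novice libraries, 7 of 8 of the former stood higher (0.41) and 5 of 8 of the latter higher (0.11). The part of any of these cell types in the Slc16a1 level beyond this was not tested. In bulk samples fewer cells of a type and less RNA per cell cannot be told apart.

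Slc16a1 stood higher in expert than in naive libraries within both background classes. Within the libraries of lower background, expert libraries had 15.2 to 30.0 FPKM and naive ones 9.78 to 16.4 (n = 4 each), a log2 fold change of 0.65. Within those of higher background, expert libraries had 13.5 and 19.96 FPKM and naive ones 9.61 and 9.15, a log2 fold change of 0.75. With the background as a covariate the value was 0.56. None of these passed limma's test (adjusted p = 0.88, 0.79 and 0.91). All genes together had a median log2 fold change of -0.05 between expert and naive, and the 2183 with a mean of at least 20 FPKM one of -0.00.

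Slc16a7 and Slc16a3 were near the level of genes that should be silent. Slc16a7 encodes MCT2, a high-affinity carrier known mainly from neurons, and Slc16a3 encodes MCT4, which exports lactate from glycolytic cells and is known from astrocytes. Slc16a3 lay below the mean of the silent families in 18 of 18 libraries, and Slc16a7 in 10 of 18, among them 8 of 8 with higher background. The lowest, median and highest levels of Slc16a3 were 0, 1.45 and 5.19 FPKM in naive libraries, 1.006, 1.38 and 3.22 in novice ones and 0.207, 1.02 and 3.10 in expert ones. The highest naive levels were in naive 5 and naive 6, both of higher background, and naive 2 was listed at 0. On the shortest annotated transcript of 2272 bases, 1.54 (naive 4) to 10.03 (naive 5) fragments would give the levels of the libraries above 0. Slc16a3 gave log2 fold changes of -0.06 (novice over naive), -0.31 (expert over naive) and -0.25 (expert over novice), each with an SE of 0.41 and within it. With a pseudocount of 0.1 the value for novice over naive was 0.34.

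Slc16a7 had 2.31, 3.66 and 4.70 FPKM as its lowest, median and highest levels in naive, 2.39, 3.43 and 4.23 in novice and 0.954, 2.22 and 4.89 in expert libraries. Expert 3 and expert 6, the libraries with the most Slc16a1, had the least Slc16a7, at 1.02 and 0.954 FPKM. Its log2 fold change was -0.52 for expert over naive (SE 0.25, unadjusted p = 0.051, adjusted p = 1.0 by limma) and -0.49 for expert over novice (SE 0.25, unadjusted p = 0.067, adjusted p = 0.45). Without expert 3 and expert 6 the value against naive was -0.21 and that against novice -0.17. Levels of Slc16a3 and Slc16a7 this close to the silent families give no firm order of the stages.

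Slc16a1 supplied most of the carrier transcript in nearly every library. Its share of the summed FPKM of the 3 carriers was 49.1% to 84.1% in naive libraries, 53.6% to 77.7% in novice ones and 62.7% to 96.1% in expert ones, with means of 68.3 ± 15.6%, 69.4 ± 8.45% and 83.6 ± 11.8% (SD, n = 6 each). It was below 50% only in naive 6. By background class, the Slc16a1 share was 67.7% to 96.1% where the background was lower and 49.1% to 84.2% where it was higher.

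**Figure D2:**
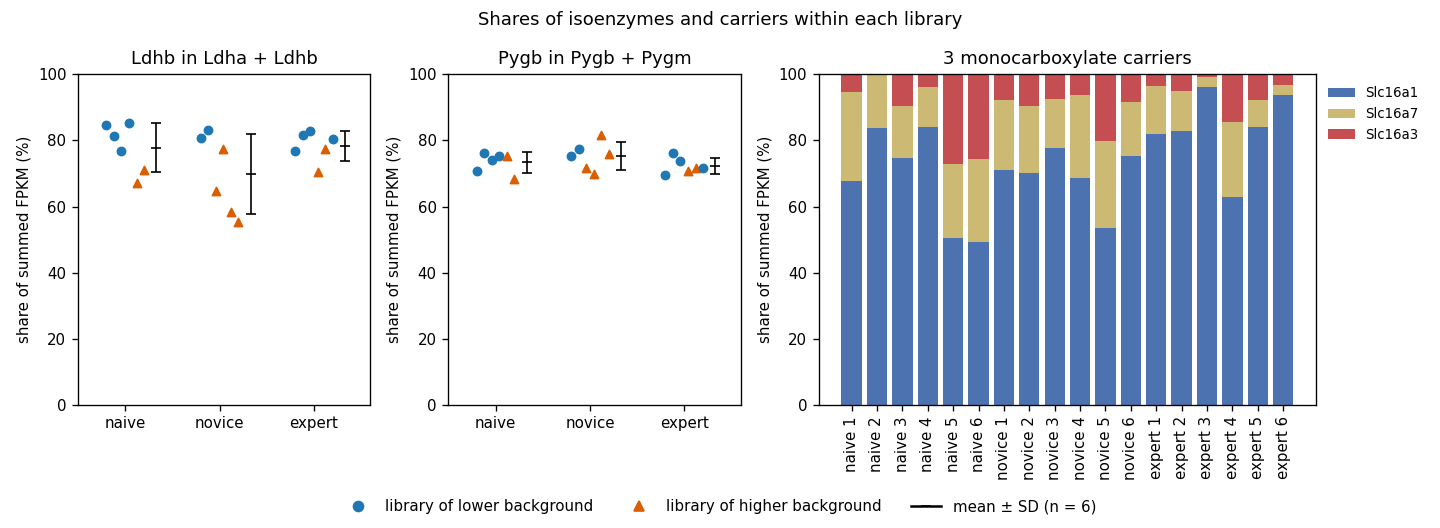
Shares of summed FPKM in percent (vertical axes, 0 to 100) for Ldhb among the lactate dehydrogenases and Pygb among the phosphorylases, as points per library with mean ± SD, and for the 3 carriers as stacked bars, 1 bar per library. The Pygb share stays between 68.2% and 81.8%, the Ldhb share ranges from 55.2% to 85.3%, and the Slc16a1 share is highest in expert 3 at 96.1%.

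Of the lactate dehydrogenases, Ldhb outweighed Ldha in every library and varied far more. Ldha encodes the A subunit and Ldhb the B subunit. Ldhb had 69.8, 178 and 328 FPKM as its lowest, median and highest levels in naive, 58.5, 84.9 and 169 in novice and 73.4, 169 and 332 in expert libraries. Levels of 157 FPKM or more were found in all 10 libraries of lower background and levels of 103 FPKM or less in all 8 of higher background, so that the classes did not overlap, while the training groups did. Ldhb stood lower in novice than in naive libraries by a log2 fold change of -0.75 (SE 0.43, adjusted p = 0.89 by limma). Expert libraries differed from novice ones by 0.74 (SE 0.43, adjusted p = 0.45) and from naive ones by -0.01 (SE 0.43, adjusted p = 1.0). With the background as a covariate these values were -0.45, 0.06 and -0.38.

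Ldha was steadier. It had 28.3, 43.1 and 74.9 FPKM in naive libraries, 30.1, 35.8 and 51.3 in novice ones and 27.8, 45.2 and 68.2 in expert ones, as the lowest, median and highest levels. The groups overlapped throughout, and its log2 fold changes of -0.19 (novice over naive), -0.02 (expert over naive) and 0.17 (expert over novice) were all smaller than their SE of 0.26. The 95% interval of Ldha for expert over naive was -0.56 to 0.52, so that a difference of either sign of that size remains possible.

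The share of Ldhb in the summed FPKM of both genes was 77.8 ± 7.44% in naive libraries, 69.9 ± 12.1% in novice ones and 78.3 ± 4.47% in expert ones (SD, n = 6 each). The ratio of Ldhb to Ldha ranged from 1.23 in novice 6 to 5.78 in naive 4. Where the background was lower the share was 76.8% to 85.3%, and where it was higher 55.2% to 77.5%. Novice 1 and novice 2, the novice libraries of lower background, had 80.9% and 83.1%, within the naive range of 67.0% to 85.3%. Ldhb is also expressed in neurons, and 10 of 10 neuron markers were above 0 in every library. Their summed level was 136 to 909 FPKM in naive libraries, 167 to 1246 in novice ones and 181 to 1188 in expert ones, and 322 to 1246 where the background was lower against 136 to 332 where it was higher. Astrocyte markers differed in the same direction as Ldhb, with 20 of 20 lower in novice than in naive libraries (median log2 fold change -0.59) and 20 of 20 higher in expert than in novice ones (0.76). Of the neuron markers, 8 of 10 stood lower in novice than in naive libraries (median -0.18) and 5 of 10 higher in expert than in novice ones (0.003). The part of either list in the Ldhb level was not tested.

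Of the glycogen synthesis genes, Gys1 had a higher mean in expert libraries than at the other stages. Gys1 encodes the glycogen synthase of brain and muscle, which lengthens the glucose chains. Its lowest, median and highest levels were 2.57, 7.14 and 7.86 FPKM in naive libraries, 3.16, 4.34 and 5.84 in novice ones and 5.84, 8.34 and 14.1 in expert ones. Expert and novice libraries barely overlapped, with expert 4 at 5.838 FPKM and novice 2 at 5.844, and expert exceeded novice in 35 of 36 pairs of libraries. The means were 6.00 ± 2.33 FPKM in naive libraries, 4.37 ± 0.930 in novice ones and 8.66 ± 2.95 in expert ones (SD, n = 6 each). The log2 fold change of Gys1 was 0.82 for expert over novice (SE 0.25, 95% interval 0.29 to 1.34, unadjusted p = 0.0043, adjusted p = 0.45 by limma). It was 0.50 for expert over naive (SE 0.25, unadjusted p = 0.064, adjusted p = 1.0) and -0.32 for novice over naive (SE 0.25).

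By background class, the values of Gys1 were as follows. Expert libraries had 8.21 to 14.1 FPKM where the background was lower, against 4.49 and 5.84 in novice 1 and novice 2. They had 5.84 and 6.31 FPKM where it was higher, against 3.16 to 4.81 in the 4 novice libraries. Naive libraries had 3.58 to 7.86 FPKM where the background was lower. Where it was higher they had 2.57 and 7.60 FPKM, the latter in naive 5 and above both expert libraries of that class. For expert against naive the log2 fold changes were 0.57 and 0.35 in the classes and 0.34 with the background as a covariate (limma, adjusted p = 0.88, 0.90 and 0.91). Gys1 lay below the mean of the silent families in 6 of the 8 libraries of higher background, all 4 novice ones and expert 4 among them, so that the levels there give no firm order of the stages. The log2 fold changes for expert against novice were 0.81 and 0.52 in the classes and 0.53 with the background as a covariate, at adjusted p = 0.50, 1.0 and 0.98 by limma. All 20 astrocyte markers had higher means in expert than in novice libraries too, with a median log2 fold change of 0.76, close to the values of Gys1, Slc16a1, Ldhb, Pygb and Ppp1r3c in that comparison, and their part in these levels and in that of Pygm was not tested.

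Gbe1, the branching enzyme, which adds the side chains that make glycogen soluble, overlapped widely among the stages. Its lowest, median and highest levels were 3.74, 7.90 and 9.15 FPKM in naive libraries, 3.12, 6.61 and 8.28 in novice ones and 4.37, 5.81 and 9.83 in expert ones. Its log2 fold changes were -0.17 (novice over naive), -0.13 (expert over naive) and 0.05 (expert over novice), each with an SE of 0.25. Expert exceeded novice in 18 of 36 pairs, and the 95% interval of that difference was -0.47 to 0.56. With the endothelial covariate the value for expert over naive was -0.53 (unadjusted p = 0.029, adjusted p = 1.0 by limma), and within the libraries of lower background that for novice over naive was -0.65 (adjusted p = 0.99). The range of Gbe1 was alike in both background classes, at 3.12 to 9.83 FPKM where the background was lower and 3.74 to 9.15 where it was higher. Gbe1 lay below the mean of the silent families in 3 of the 8 libraries of higher background, so that its level there is not clear of the background.

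Both phosphorylases were expressed. Pygb is named for the brain form and Pygm for the muscle form, and astrocytes are known to hold both. Pygb had 26.6, 61.5 and 98.4 FPKM as its lowest, median and highest levels in naive, 26.8, 32.4 and 63.7 in novice and 39.8, 64.2 and 126 in expert libraries. Pygm had 9.65, 22.9 and 30.6 FPKM in naive libraries, 7.10, 12.8 and 19.9 in novice ones and 16.3, 26.01 and 44.8 in expert ones. For both genes the highest level was in expert 3 and the training groups overlapped, whereas every library of lower background lay above every library of higher background. For Pygb the lowest level under lower background was 52.3 FPKM and the highest under higher background 41.3, and for Pygm these were 18.3 and 16.4 FPKM.

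Pygm averaged 26.2 ± 10.4 FPKM in expert and 13.3 ± 5.17 in novice libraries (SD, n = 6 each). The log2 fold change was 0.93 (SE 0.32, 95% interval 0.25 to 1.61), with expert higher in 32 of 36 pairs, unadjusted p = 0.0095 and adjusted p = 0.45 by limma. It was 0.63 within the libraries of lower background, 0.66 within those of higher background and 0.46 with the background as a covariate. For Pygb the log2 fold change was 0.74 (SE 0.36, adjusted p = 0.45), and 0.17 with the background as a covariate. Novice against naive gave -0.61 (SE 0.32) for Pygm and -0.48 (SE 0.36) for Pygb, and expert against naive 0.32 (SE 0.32) for Pygm and 0.26 (SE 0.36) for Pygb, none past the threshold (limma, adjusted p = 0.89 and 1.0 in these comparisons).

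The ratio of Pygb to Pygm ran from 2.15 in naive 6 to 4.496 in novice 5. Pygb made up 73.3 ± 3.20% of their summed FPKM in naive libraries, 75.3 ± 4.24% in novice ones and 72.3 ± 2.36% in expert ones (SD, n = 6 each), and ranged from 69.6% to 77.4% in the lower and 68.2% to 81.8% in the higher background class (n = 10 and 8). The summed level of both phosphorylases was 5.17 to 19.7 times that of Gys1 in naive libraries, 7.35 to 17.9 times in novice ones and 9.13 to 12.4 times in expert ones.

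Ppp1r3c encodes the subunit known as PTG, which brings protein phosphatase 1 to glycogen and so favours synthesis over breakdown. Its lowest, median and highest levels were 9.63, 29.3 and 40.7 FPKM in naive libraries, 6.97, 17.4 and 27.4 in novice ones and 17.4, 27.7 and 40.7 in expert ones. Naive 5, naive 6 and novice 3 were the lowest, all of higher background. Novice libraries stood below naive ones by a log2 fold change of -0.40 and expert libraries above both, by 0.27 over naive and 0.68 over novice (SE 0.35 each; limma, adjusted p = 0.89, 1.0 and 0.45). With the background as a covariate these were -0.21, 0.03 and 0.24.

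**Figure D3:**
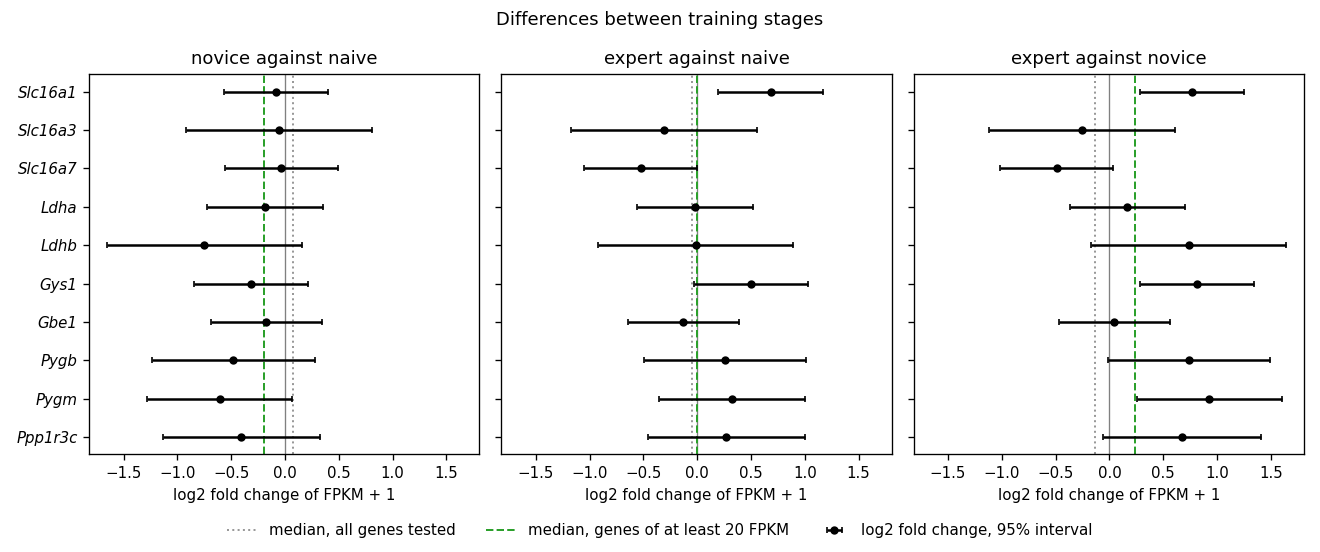
Log2 fold changes of FPKM + 1 with 95% intervals (horizontal axes) for the 10 genes in 3 comparisons. Dotted and dashed lines give the median of all genes tested and of those with a mean of at least 20 FPKM. For expert against novice the intervals of Slc16a1, Gys1 and Pygm lie above 0, and none of the 10 genes passed the test over all genes.

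By stage, 10 of 10 members had lower means in novice than in naive libraries on the log2 scale, with a median log2 fold change of -0.25. Over all genes tested 43% stood below 0 in this comparison and the median was 0.07, and among the 2183 genes with a mean of at least 20 FPKM 67.6% stood below 0 and the median was -0.20. The astrocyte markers stood lower too, 20 of 20 with a median of -0.59 and 2 at an unadjusted p under 0.05, a larger shift than that of the members, and their part in the result was not tested. At an unadjusted p under 0.05 there were 0 of 10 members (4.6% of all genes), and the groups overlapped for 10 of 10 (they did not for 0.129% of all genes). Within the libraries of higher background 5 members turned positive, with log2 fold changes of 0.30 for Slc16a1, 0.18 for Ldha, 0.21 for Gbe1, 0.09 for Pygb and 0.27 for Ppp1r3c.

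For expert against naive, 5 members stood higher and 5 lower (56.1% of all genes lower), with a median of 0.12, and Slc16a1 was the only one at an unadjusted p under 0.05 (2.86% of all genes). The groups overlapped for 10 of 10 members (they did not for 0.0782% of all genes). For expert against novice, 8 of 10 members stood higher (40.4% of all genes and 65.5% of those with a mean of at least 20 FPKM), all but Slc16a3 and Slc16a7. The median of the members was 0.71, and that of all genes -0.14 and of the more abundant ones 0.24. Slc16a1, Gys1 and Pygm were at an unadjusted p under 0.05 (10.9% of all genes), and again the groups overlapped for 10 of 10 members (they did not for 0.432% of all genes). With the background as a covariate the median of the members was 0.20 and that of all genes 0.02. Each group served in 2 of these comparisons, so that they are not independent.

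**Figure D4:**
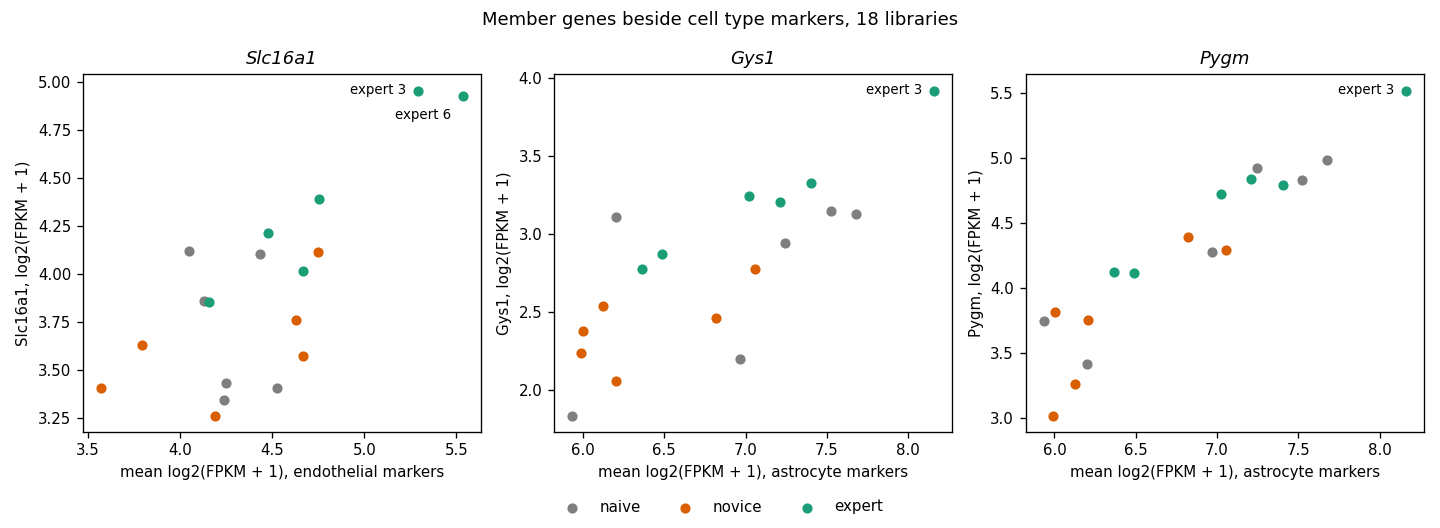
Log2(FPKM + 1) of Slc16a1 against the mean of 15 endothelial markers, and of Gys1 and Pygm against the mean of 20 astrocyte markers, in 18 libraries coloured by group. Expert 3 and expert 6 have the highest endothelial means, 5.29 and 5.53, and the highest Slc16a1, and expert 3 has the highest astrocyte mean, 8.16, with the highest Gys1 and Pygm.

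The other genes of these pathways, taken from 3 lists of 57 genes in all, showed no call in any comparison (limma). At an unadjusted p under 0.05 there were 0 of 57 between novice and naive (4.6% of all genes), 1 between expert and naive (2.86%) and 6 between expert and novice (10.9%), shares no higher than those of all genes, and the medians of the 57 log2 fold changes were -0.01, 0.01 and 0.10. Of 19 other carriers and partners, 6 stood higher and 13 lower in expert than in novice libraries (median -0.17). Of all genes 40.4% stood higher there, and of those with a mean of at least 20 FPKM 65.5%. Between novice and naive libraries 8 of the 19 stood lower (median 0.05, 43% of all genes lower). Between expert and naive ones 10 did (-0.001, 56.1% of all genes lower). Among these 19, Bsg, the chaperone basigin that brings MCT1 and MCT4 to the membrane, was by far the most abundant. Bsg averaged 468 ± 186 FPKM in expert (242 to 725) and 267 ± 55.1 in novice libraries (202 to 336), a log2 fold change of 0.74 (SE 0.30, adjusted p = 0.45 by limma), and 320 ± 58.4 in naive libraries. Endothelial cells are rich in Bsg, and their markers differed in the same direction, with a median log2 fold change of 0.52 between expert and novice libraries (15 of 15 higher). Their part in the Bsg level was not tested. The Slc16 family members Slc16a4, at 0.55 (SE 0.26), Slc16a5, at -0.70 (SE 0.32), and Slc16a14, at -0.84 (SE 0.40), differed between expert and novice libraries at an unadjusted p under 0.05. Slc16a14 also did so between expert and naive ones, at -0.83 (SE 0.40). Slc16a14 averaged 4.74 ± 2.03 FPKM in naive libraries, 4.75 ± 1.83 in novice ones and 2.79 ± 2.66 in expert ones, within the range of the silent families.

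Of 28 other glycogen genes, 15 stood lower in novice than in naive libraries (median -0.02). Of all genes 43% stood lower there, and of those with a mean of at least 20 FPKM 67.6%. Between expert and naive libraries 12 stood lower (0.02, 56.1% of all genes and 50.1% of the more abundant ones lower). Between expert and novice libraries 20 stood higher (0.17, 40.4% of all genes and 65.5% of the more abundant ones higher). Ppp1r3a, which targets the phosphatase to glycogen in muscle, was the only one at an unadjusted p under 0.05, at 0.988 ± 0.484 FPKM in expert and 1.85 ± 0.532 in novice libraries (log2 fold change -0.54, SE 0.26), levels like those of silent genes. Of 10 genes that govern the entry of pyruvate into the mitochondrion, 8 stood higher in expert than in novice libraries (median 0.14), beside the same shares of all genes. The kinase Pdk2, which switches off pyruvate dehydrogenase, was at 29.6 ± 12.2 FPKM in expert and 17.0 ± 5.52 in novice libraries (0.73, SE 0.32, adjusted p = 0.45 by limma).

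The genes whose levels over the 18 libraries were most like those of a member, among 4545 with a mean of at least 10 FPKM, differed from member to member. The measure was the Pearson correlation of log2(FPKM + 1), given as a description, and background is shared by all of these points, so that the values within the 10 libraries of lower background and within the 8 of higher background stand in parentheses after each. For Pygb the closest was Gnao1, the G protein subunit of inhibitory receptors, at 0.99 (0.98 and 0.92), followed by Scg3 at 0.99 (0.99 and 0.77) and by Slc1a3, the glutamate transporter of astrocytes, at 0.99 (0.98 and 0.74). Ldhb was closest to Ckb, brain creatine kinase, at 0.98 (0.98 and 0.70), followed by Gstm1 at 0.98 (0.99 and 0.71) and Ndrg2 at 0.98 (0.95 and 0.82). Pygm was closest to Fermt2 at 0.96 (0.91 and 0.85) and to Slc6a11, a GABA transporter of astrocytes, at 0.96 (0.92 and 0.87), then Cep85l at 0.96 (0.88 and 0.86). Ppp1r3c was closest to Ap2a1 at 0.95 (0.89 and 0.87), then Snapin at 0.94 (0.80 and 0.91).

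Slc16a1 was closest to other genes, namely Utrn, the cytoskeletal linker utrophin, at 0.92 (0.94 and 0.83), Myh9, a non-muscle myosin, at 0.90 (0.91 and 0.89), and Golim4 at 0.90 (0.92 and 0.83). For Gys1 these were Chst10 at 0.92 (0.93 and 0.93), Itpr2, the calcium release channel of astrocyte stores, at 0.90 (0.89 and 0.84), and Acot11 at 0.89 (0.86 and 0.92). Ldha and Gbe1 had no gene as close. Ldha was closest to Sec13 at 0.85 (0.80 and 0.81), then Gfra1 at 0.84 (0.84 and 0.88) and Papola at 0.84 (0.85 and 0.71). Gbe1 was closest to the small heat shock protein Hspb1 at 0.82 (0.86 and 0.84), then to the endothelial marker Emcn at 0.78 (0.72 and 0.92) and B2m at 0.74 (0.77 and 0.70).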

How the data were processed

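RNA was measured in 18 libraries of motor cortex astrocytes, from stranded total RNA libraries per the labels' protocols. The values of the deposited table, 1 per gene symbol and named normalized counts by the authors, were read as FPKM from the tools named. Scaling with transcript length was assumed in the steps below, and a fit without length was not made. Per the submitters' processing notes, TopHat and Cufflinks were used with build mm9, while versions, options, annotation and scaling between libraries were not given in the sources used. Of 23951 entries, 27 with names turned into dates were left out. The value of 1 fragment on 1 kb was the step at which FPKM times length of 79 olfactory receptor genes came closest to whole numbers, with 88.2% to 100% of low values within 0.1 of one (about 20% for a step not chosen so).

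The 21745 genes that reached 1 FPKM in 6 or more libraries were fitted as log2(FPKM + 1) in limma 3.58.1 (R 4.3.3; lmFit, eBayes with trend), all 3 groups in 1 fit, two-sided, with p adjusted over all genes by Benjamini and Hochberg at a threshold of 0.05. A fold change on this scale understates that of low genes. The fit was tested on simulated data. Read totals are unknown.

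The members, lists, comparisons and alternatives were chosen with earlier results of these data known. Named genes are the 10 members, listed pathway genes at an unadjusted p under 0.05, and the 3 genes most correlated with each member of at least 5 FPKM; 1 of these is not reported here. Alternatives were other pseudocounts, filters, scalings, covariates, a replicate block and libraries left out. Promoter sequences are from RefSeq, GRCm38.p6, and their coordinates are not of the deposited build. Python 3.11.15 and pandas 2.3.3 were used for descriptions.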

Additional observations from a re-analysis of the deposited data

Results flagged for a closer look

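Of 45 checks for a library far from the others of its group (10 genes and 5 shares in 3 groups, by the gap to the next library over the group's range), 2 passed the 95% limit, and chance gives about 1 in 20. Both concern novice 5 and are shares of the same sum, so that they are not independent. Its share of Slc16a1 among the 3 carriers was 53.6%, the lowest of the novice group, and its share of Slc16a3 was 20.1%, the highest. Slc16a3 was 3.22 FPKM and Slc16a1 8.59 FPKM in this library, which is of higher background.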

How the results depend on the processing

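No log2 fold change of a member passed limma's test (adjusted p under 0.05) as reported or under any of 33 alternatives, 18 of which leave out 1 library. Of 984 recomputed values 934 kept their direction and 50 did not, and 16 of 30 results kept it throughout. Many of these values could not change, so that the count overstates how stable the directions are. Other filters, the replicate block, the sex covariate and the fit without a trend leave a log2 fold change as it was. So does leaving out libraries of the group outside a comparison. The range of Slc16a1 over all alternatives was 0.39 to 0.79 for expert against naive and 0.44 to 1.01 against novice. Its unadjusted p by limma reached 0.11 and 0.14 among them. For expert against novice it was 0.52 to 0.95 for Gys1 and 0.46 to 1.10 for Pygm. The cause of the changes below was not tested.

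Values of the other sign were, for expert against naive, Ldha 0.075 and Ldhb 0.083 with TMM scaling, Ldhb 0.11 with quantile normalization, 0.070 with the endothelial covariate and 0.12 in libraries of higher background, Pygb -0.054 with the background covariate and -0.0081 without expert 3 and expert 6, and Ldha 0.087 and Ppp1r3c -0.056 in libraries of lower background. For novice against naive they were Slc16a3 0.34 with a pseudocount of 0.1, Slc16a1 0.019 with quantile normalization and 0.016 with the background covariate, Slc16a3 0.072 and Slc16a7 0.095 without novice 1 and novice 3, Slc16a3 0.38 and Slc16a7 0.027 in libraries of lower background, and Slc16a1 0.30, Ldha 0.18, Gbe1 0.21, Pygb 0.094 and Ppp1r3c 0.27 in those of higher background. For expert against novice they were Slc16a3 0.13 with quantile normalization, 0.27 with the background covariate and 0.34 in libraries of higher background, Ldha -0.10 with the background covariate and -0.41 in libraries of higher background, and Gbe1 -0.093 with the background covariate, -0.35 with the endothelial covariate, -0.20 without expert 3 and expert 6, -0.093 without novice 1 and novice 3 and -0.38 in libraries of higher background. Leaving out 1 library gave ranges of -0.25 to 0.20 for Ldhb and -0.15 to 0.13 for Ldha (expert against naive), -0.34 to 0.19 for Slc16a3 and -0.12 to 0.036 for Slc16a7 (novice against naive), and -0.11 to 0.13 for Gbe1 (expert against novice).

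The median of the members for expert against novice was 0.20 with the background covariate. Genes called numbered 0 as reported and under all alternatives but 1: within the libraries of higher background 3 were called between novice and naive, 4 between expert and naive, 5 between expert and novice and 6 for any difference, all of them short noncoding RNAs (Mir568, Mir1892, Mir3093, Mir6541, Snora28 and Snora36b). Genes at an unadjusted p under 0.05 for expert against novice numbered 2360 as reported, 532 without expert 3 and expert 6, and 4376 without expert 4. A filter of 5 FPKM leaves Slc16a3 and Slc16a7 without a value. With a replicate block 0 genes were called. The log2 fold changes could not change, since each group held 1 library of each number (0.68 for Slc16a1, expert against naive). Some SEs fell and some rose, for expert against novice from 0.32 to 0.25 for Pygm and from 0.25 to 0.27 for Gys1. Same-numbered libraries were best matches in 2 of 18 pairs. The correlations of their deviations from the group means ran from -0.36 to 0.46, with 10 of 18 over 0.1. These values do not settle whether the numbers stand for a pairing.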
